A study of Mus musculus with 8 samples.

Results

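H3K4me3, histone H3 trimethylated at lysine 4, was compared between D1 cells stimulated for 2 h with 10 μg/ml curdlan and non-treated (NT) D1 cells, from the peak list of 1 ChIP-seq library in each condition. D1 is a long-term dendritic cell (DC) line from the spleen of C57BL/6 mice, kept in medium with GM-CSF, so each value describes this line and not a population of primary cells. The study also mapped the transcription factor NFATc2, carrying a V5 tag, after 30 min of curdlan, and H3K4me3 after curdlan with FK506, an inhibitor of calcineurin. The study's general account of its ChIP assays names a D1 line that stably carried the tagged NFATc2, whereas the labels of the H3K4me3 libraries name D1 without a tag, so which of the lines gave these libraries was not settled here.

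Members were the H3K4me3 regions of the NT and curdlan lists. Peaks of the 2 lists that overlapped by at least 1 bp were joined into a region. The 15954 regions obtained in this way were part of 22836 regions over the 4 peak lists of the series. Of them 14101 held a peak in both lists and were compared, whereas 1261 had a peak only in NT and 592 only in curdlan. The change of a paired region was the log2 ratio of its tags (mapped ChIP reads), scaled to 1000000 ChIP tags of the library (RPM), curdlan over NT, minus the median over all paired regions. A region is said to have risen or fallen where this centred ratio was 2-fold or more, and to have widened or narrowed where the centred ratio of its length was 1.5-fold or more. Intervals are exact 95% binomial intervals of the tag ratio and cover counting error only. With 1 library in each condition there was no replicate spread and no test between conditions.

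H3K4me3 is laid down by methyltransferases of the SET1 and MLL families around the starts of active genes, and its extent into the gene body tends to follow how strongly a gene is transcribed. Curdlan is a particulate β-glucan that binds dectin-1, a C-type lectin receptor of DCs. Dectin-1 signals through the kinase SYK to NF-kB, MAP kinases and, by way of calcium and calcineurin, to NFAT proteins, and it drives DC maturation with induction of cytokines and costimulatory molecules.

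The 2 libraries held 16662316 (NT) and 21289349 (curdlan) ChIP tags, with 15799 and 14872 peaks of a median length of 2371 and 2575 bp. Of 12 DC markers 11 had a peak in both lists, beside 10794 of all 22238 protein-coding genes. Among the 11 were Itgax, Cd74, Spi1 and Zbtb46, and Flt3 had no peak. Macrophage markers were not listed, so these counts do not tell a DC from a macrophage. No B cell or fibroblast marker had a peak in either list, of 6 neutrophil markers only Prtn3 had one, in NT only (74 tags), and 1 marker each of T cells (Lck), erythroid cells (Klf1) and epithelium (Cdh1) had a peak in both. The ratio of ChIP to input tags in the headers was 1.38 in NT and 2.29 in curdlan. Peaks held 57.9% of the NT tags and 52.8% of the curdlan tags, and the median paired region had 0.904 times the NT level (log2 -0.15) in curdlan before centring. How far these differences between libraries enter the changes given here was not tested.

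Most of the H3K4me3 landscape differed little between the 2 lists, and the regions that did change mostly gained the mark. Of the 14101 paired regions, 190 rose (1.35%) and 39 fell (0.277%), while 326 widened (2.31%) and 99 narrowed (0.702%). Within 1.5-fold of the median in tags were 92.9% of the regions. The standard deviation of the centred log2 tag ratio over regions was 0.34, against 0.09 for counting error at the median number of tags. Rises thus made up 83.0% of the changed regions, a share that was 59.3% without centring and 48.7% when the fold enrichment over input given by MACS replaced the tags. A rise and a wider region went together: 121 regions rose and widened, 69 rose without widening and 205 widened without rising. Across the 14101 regions, which share the same 2 libraries, the changes in tags and in length had a Spearman rho of 0.51, which is a description only.

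**Figure D1:**
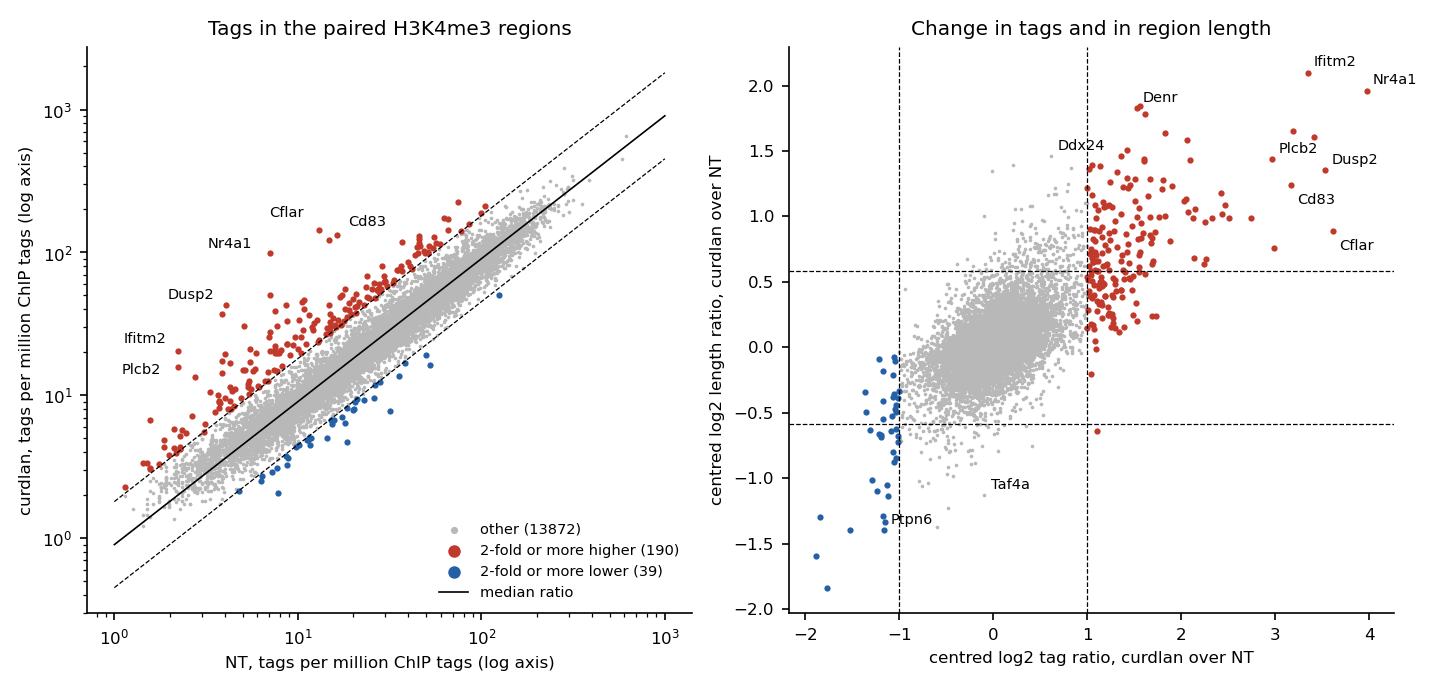
Left, RPM of the 14101 paired H3K4me3 regions in NT (x axis) and curdlan (y axis), on log axes, with the median ratio as a solid line and the 2-fold limits dashed. Right, the centred log2 ratios of tags (x axis) and of region length (y axis), with the limits for a change dashed; points are regions, red for the 190 that rose and blue for the 39 that fell, and most red points lie above the 0 line of the length axis.

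Regions that rose were mostly weak in NT, a level that also enters the ratio by which they were called. Their median count went from 179 tags in NT to 651 in curdlan and their median length from 2037.5 to 3796.5 bp, and the median rise was 2.46-fold. Of the 3531 regions with 19 to 233 tags in NT 105 rose, and of the 3522 with 915 to 10233 tags 11 did. Counting error was small beside most of the changes: the lower bound of the interval was above 2-fold for 111 of the 190 risen regions, and for 10 of the 39 fallen regions the whole interval lay past 2-fold. Of the risen regions 140 lay within 1 kb of the start of a protein-coding gene, which is 73.7% beside 75.5% of all paired regions. Of the fallen regions only 6 did (15.4%), with 16 inside genes and 15 elsewhere.

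The largest rises at promoters were at Nr4a1, Cflar, Dusp2, Ifitm2 and Cd83. Among the 10652 paired regions at protein-coding starts, 140 rose (1.31%), 6 fell (0.0563%), 238 widened (2.23%) and 43 narrowed (0.404%), and 22 rose 4-fold or more. The start of Nr4a1, the orphan nuclear receptor Nur77 and an immediate early gene, had 7.02 RPM in NT and 99.8 in curdlan, a 15.7-fold rise (log2 3.97, interval 3.71 to 4.26). A region at an internal start of Cflar, which encodes the caspase-8 inhibitor c-FLIP, went from 217 to 3062 tags (12.2-fold, interval 10.6 to 14.1). The near edge of this region lay 13106 bp from the most upstream start of Cflar, and the region at that start had 1343 and 2448 tags, a centred log2 ratio of 0.66. Dusp2, a nuclear phosphatase of MAP kinases, went from 4.08 to 42.7 RPM (11.6-fold; log2 3.53, 3.17 to 3.91). Ifitm2, an interferon-inducible membrane protein of a family with similar copies, rose 10.2-fold (7.25 to 14.6) from only 37 tags, and reads shared with other copies make its value uncertain. Cd83, a surface molecule of mature DCs, rose from 16.4 to 133 RPM (8.99-fold, 7.94 to 10.2).

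The next promoters were of mixed function. Plcb2, a phospholipase C, rose 7.84-fold at an internal start, from 2.22 to 15.7 RPM. Sema7a, a membrane-anchored semaphorin, rose from 5.10 to 30.8 RPM (6.68-fold, 5.32 to 8.48). Ccl22, a chemokine of mature DCs that attracts CCR4-bearing T cells, rose from 7.50 to 38.7 (5.70-fold, 4.72 to 6.94). Each of these regions held 125 tags or fewer in NT. Casp4, the caspase that senses lipopolysaccharide inside cells, rose from 8.64 to 43.2 RPM (5.53-fold, 4.64 to 6.64). The rest of the 20 largest rises ranged from 5.42-fold (Bean1) to 4.14-fold (P2ry2). They comprised 1190002H23Rik (Rgcc, a cell cycle regulator), the choline transporter gene Slc44a1, Fam167a, Phldb1, Nudt17, the adaptor gene Afap1l2, the collagen prolyl hydroxylase gene Leprel1, the chemokines Ccl3 and Cxcl2, and P2ry2, a receptor for extracellular ATP and UTP. Every one of the 20 had a lower interval bound above 3-fold, and 17 of them lay at the most upstream annotated start of the gene. Limiting peaks to a false discovery rate (FDR) of 5% or less removed some of these regions, among them Ifitm2, Plcb2 and 1190002H23Rik.

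**Figure D2:**
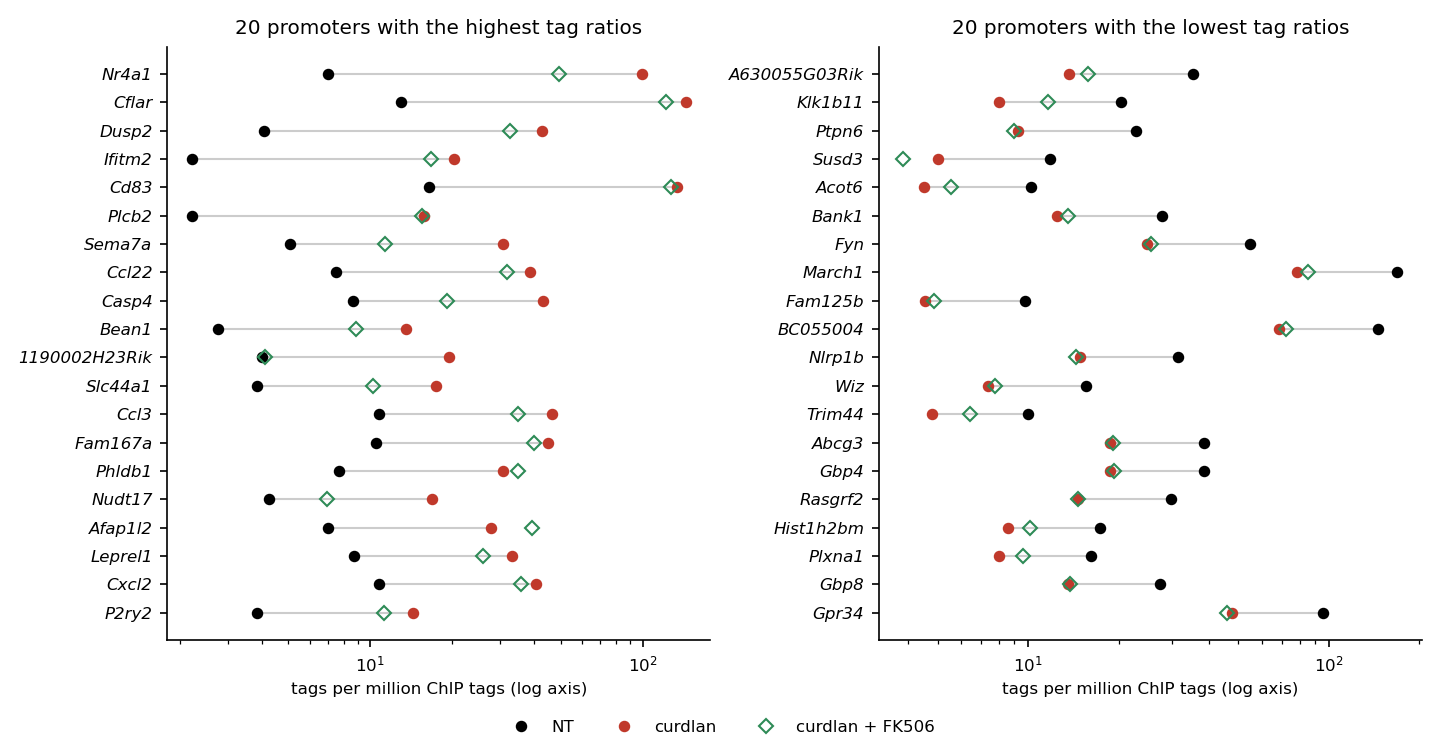
RPM (log x axis) in NT (black), curdlan (red) and curdlan with FK506 (open green diamonds) at the 20 promoters with the highest (left) and the 20 with the lowest (right) centred tag ratio of curdlan over NT, 1 library each. Red lies right of black at the left-hand genes, 4.14-fold or more after centring, and left of black at the right-hand genes, of which the upper 6 were past 2-fold.

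The curdlan and FK506 comparisons share the NT library, so values are set side by side only. In NT, curdlan and curdlan with FK506, Nr4a1 had 7.02, 99.8 and 49.1 RPM, 1190002H23Rik 4.02, 19.5 and 4.11, Sema7a 5.10, 30.8 and 11.3, Cd83 16.4, 133 and 127, and Afap1l2 7.02, 27.8 and 39.4.

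Letters of an NF-kB type motif were found in several of these promoters, and the sequences are shown because, of the motifs searched, its share differed most, as a ratio, between risen and all paired promoters. The motif, GGG followed by any 2 bases and TTTCC, was searched on both strands in the 300 bases from 250 before to 50 after the start. It was present in 11 of the 140 risen promoters (7.86%), in 17 of the 238 widened ones (7.14%), in 187 of the 10652 paired promoter regions (1.76%) and in 1.57% of the starts of all protein-coding genes. Among the 20 largest rises it was found at Cflar, Casp4, Leprel1 and Cxcl2, in each with a match before the start and outside exons, and Casp4 had a further match just after its start, outside the stretch shown. The 200 bases before the start used are given 5′ to 3′ on the strand of the gene in mm9, with the motif in capitals and, in Leprel1, also a TGAGTCA. They are chr1:58787196-58787395 on the plus strand (Cflar, internal start), chr9:5308628-5308827 on the plus strand (Casp4), chr16:26014680-26014879 on the minus strand (Leprel1, internal start) and chr5:91332697-91332896 on the plus strand (Cxcl2, with the motif at 69 and at 50 bases before the start).
Cflar: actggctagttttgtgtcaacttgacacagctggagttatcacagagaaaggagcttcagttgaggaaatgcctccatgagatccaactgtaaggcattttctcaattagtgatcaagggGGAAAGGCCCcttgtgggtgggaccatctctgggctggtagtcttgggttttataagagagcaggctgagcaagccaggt
Casp4: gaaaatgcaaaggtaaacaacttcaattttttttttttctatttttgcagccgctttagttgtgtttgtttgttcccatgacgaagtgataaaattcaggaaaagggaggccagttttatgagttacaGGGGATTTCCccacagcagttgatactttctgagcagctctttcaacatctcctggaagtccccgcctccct
Leprel1: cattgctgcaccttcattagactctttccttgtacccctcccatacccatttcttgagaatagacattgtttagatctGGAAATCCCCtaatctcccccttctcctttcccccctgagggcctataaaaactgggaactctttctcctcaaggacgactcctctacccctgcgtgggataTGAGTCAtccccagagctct
Cxcl2: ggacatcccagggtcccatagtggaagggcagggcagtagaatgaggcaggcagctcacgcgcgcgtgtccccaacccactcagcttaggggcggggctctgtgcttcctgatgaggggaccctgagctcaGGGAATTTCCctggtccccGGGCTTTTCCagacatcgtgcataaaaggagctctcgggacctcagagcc

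The other 7 risen promoters with the motif were those of Tnfaip3, Tnfrsf9, Cd9, Nfkbiz, Nfkb1, Acot7 and Enthd1, and they rose between 2.08-fold (Enthd1) and 3.32-fold (Tnfaip3). Cd9 encodes a tetraspanin of the cell surface. The stretches around the motif in the 3 of these where it lay outside exons are shown as read in mm9, on the strand of the gene and with the motif in capitals, for comparison with those above. They are chr6:125444988-125445017 on the minus strand (Cd9), chr4:151559770-151559799 on the plus strand (Acot7, an internal start) and chr15:80391099-80391128 on the minus strand (Enthd1).
Cd9: acggaggtccGGAAAGACCCcgagacggtg
Acot7: ggagggacacGGGACTTTCCctgtcctaaa
Enthd1: agtcttgtgaGGGATTTTCCcgtgtttatc

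Other features of risen promoters lay nearer to those of all paired promoters. The AP-1 type motif TGACTCA or TGAGTCA was present in 7.14% of risen and 3.20% of all paired promoters. For the cAMP response element TGACGTCA the shares were 3.57% and 3.67%, for the NFAT core GGAAAA, present in 28 risen promoters, 20% and 19.5%, and for the CArG box, the site of serum response factor, 1.43% and 1.17%. The median GC content was 63.7% and 62.0%. A match describes letters only, and its absence from these windows says nothing of a factor. A summit of the NFATc2 list lay within 1 kb of the start at 17 risen promoters (12.1%) and at 800 of all (7.51%), and it lay inside the region at 27.4% of all 190 risen, 15.4% of fallen and 13.9% of all paired regions. Risen regions were longer, so the shares inside regions were not taken over equal lengths.

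Maturation and costimulatory genes were the list with the largest share of risen promoters, set beside all 10794 protein-coding genes with a region in both lists, of which 129 rose (1.2%), 4 fell (0.0371%), 222 widened (2.06%) and 32 narrowed (0.296%), with a median centred log2 ratio of 0.02. Of 15 measured maturation genes 6 rose, all 15 lay above 0 (53.4% of all genes did), and the median was 0.60 in tags and 0.30 in tags per kb, but -0.07 in MACS fold enrichment. Besides Cd83 and Ccl22 these were Cd40, the receptor for T cell help (605 tags in NT and 1717 in curdlan, log2 1.30), Ccr7, the homing receptor for lymph nodes (72 and 171 tags, 1.04), Marcksl1, a substrate of protein kinase C (26 and 143 tags, 2.25), and the chemokine Ccl17 (435 and 1297 tags, 1.37). The costimulatory ligands Cd80 and Cd86 carried a stronger mark already in NT. Cd80 had 4684 tags in NT and 8286 in curdlan (log2 0.61), and Cd86 had 1980 and 3477 (0.60). Cd70, another costimulatory ligand, had a peak of 139 tags in curdlan only, and 4 genes of the list had no peak.

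Among NF-kB genes the largest ratio was that of an inhibitor. Of 20 genes 4 rose, beside 1.2% of all genes, and 18 lay above 0, beside 53.4% of all genes. The median log2 ratio was 0.55 in tags, 0.32 in tags per kb and 0.07 in MACS fold enrichment. Tnfaip3, which encodes the ubiquitin-editing inhibitor A20, had 1245 tags in NT and 4775 in curdlan (log2 1.73), and Traf1, an adaptor of TNF receptors, had 764 and 2634 (1.58). Nfkb1 (p105/p50) had 867 and 2378 tags (1.25) and Nfkbib (IκBβ), whose region also holds the start of Sirt2, had 909 and 2290 (1.13). Rel (2247 and 4518 tags, 0.80) and Nfkb2 (1871 and 3737 tags, 0.79) did not pass 2-fold but both widened, Rel from 5841 to 12018 bp. Rela, the p65 subunit, had 1096 and 1342 tags (0.08).

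Of 27 immediate early transcription factor genes 5 rose, beside 1.2% of all genes, and 23 lay above 0, beside 53.4% of all genes. Their median was 0.40 in tags, 0.23 in tags per kb and 0.03 in MACS fold enrichment. Fos and Jun were not among those that rose. After Nr4a1 came Egr1, a zinc finger factor (769 and 2367 tags, log2 1.41), Atf3, a stress-induced bZIP repressor (1103 and 3075 tags, 1.27), Maff, a small MAF protein (587 and 1596 tags, 1.24), and Nr4a3 (1740 and 4510 tags, 1.17). Fos, which forms AP-1 with JUN, had 587 and 795 tags (0.23), Jun 3135 and 3077 (-0.23) and Myc 3036 and 3725 (0.09). Jun, Myc and Nr4a3 already held 1740 tags or more in NT, so a strong mark in NT was found with and without a rise.

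Feedback genes of signalling split. Of 24 measured, 4 rose, beside 1.2% of all genes, and the median was 0.18 in tags and -0.04 in tags per kb. Those that rose were the phosphatases Dusp2, Dusp8 (131 and 424 tags, log2 1.49) and Dusp14 (342 and 878 tags, 1.15) and Rgs1, a regulator of G protein signalling (98 and 423 tags, 1.90). Zc3h12a, a ribonuclease that degrades cytokine mRNA, had 1290 and 2857 tags (0.94), and Socs3, an inhibitor of cytokine signalling, 1648 and 3417 (0.84). Dusp6 and Socs1 lay at -0.39 and -0.34.

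None of 23 genes of dectin-1, calcineurin and NFAT signalling rose or fell, a count that is near the 1.2% and 0.0371% of all genes, and the median was -0.03. Clec7a, which encodes dectin-1, had 1295 tags in NT and 1277 in curdlan (log2 -0.23). Card9, the adaptor below SYK, had 1173 and 1014 tags (-0.42), Malt1, the protease of the same complex, 2962 and 5801 (0.76), Nfatc2 2227 and 2180 (-0.24) and Nfatc1 3111 and 4800 (0.42).

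Of 21 survival and apoptosis genes 3 rose, beside 1.2% of all genes, and the median was 0.06. Those that rose were Casp4, the death receptor gene Fas (157 and 481 tags, log2 1.41) and Gadd45b, a stress-response gene (942 and 2482 tags, 1.19). Among 17 measured writers and erasers of H3K4 methylation and related enzymes 1 rose, the H3K27 demethylase gene Kdm6b, with 1658 and 4004 tags (1.06), which is a count near the 1.2% of all genes. Of the 14 secreted factors and enzymes measured in both lists only Plaur, the urokinase receptor, rose (702 and 1624 tags, 1.00), beside 1.2% of all genes. Hdc lay at 0.69 at its promoter region with most tags, whereas another of its promoter regions rose. Of the 25 genes of this list 4 had a peak in curdlan only, beside 94 of all 22238 protein-coding genes. No peak was present at 7 of the 25, beside 11228 of all 22238. The study listed 41 cytokine and chemokine genes from its NFATc2 ChIP-seq and its expression arrays, not from the H3K4me3 peaks. Of these genes 16 had a region in both lists, and 6 of the 16 rose (37.5%), beside 1.2% of all genes. A peak in curdlan only was present at 5, beside 94 of all 22238 protein-coding genes. No peak was present at 20, beside 11228 of all 22238.

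For several lists of DC function the count of rises was near the 1.2% of all genes, so that only their medians and values are described. Of the 26 interferon response genes only Rsad2 rose (92 and 237 tags, log2 1.16), and the median was 0.01. Cytokine receptors (26 genes, median 0.02), lineage transcription factors (29 genes, 0.07) and pathogen recognition receptors (19 genes, -0.11) had none. Antigen presentation by MHC class II, a defining function of DCs, had a median of -0.23 over 11 genes with none past 2-fold, and also lay below 0 in tags per kb (-0.20) and in MACS fold enrichment (-0.43). There the peptide-loading gene H2-DMa (2365 and 1734 tags, -0.66) and the transactivator Ciita (2865 and 2298 tags, -0.53) lay lower. H2-Eb1 (3235 and 4834 tags, 0.37) and H2-Aa (2686 and 3931 tags, 0.34), which encode class II chains, lay higher in tags. In tags per kb these 2 chain genes lay at 0.04 and 0.08, and in MACS fold enrichment at -1.01 and 0.24. Over 14 chemokine and purinergic receptor genes the median was -0.22. The purinergic receptor genes P2ry12 (-0.76), P2ry13 (-0.59) and P2ry14 (-0.44), on chromosome 3, and P2ry10 (-0.37), on chromosome X, lay lower in tags. In contrast, P2ry2 rose. By MACS fold enrichment P2ry12 (-0.30) and P2ry13 (-0.75) lay below 0 and P2ry14 (0.50) and P2ry10 (0.20) above.

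Lists of general cell function moved little. Cholesterol (22 genes, median 0.01) and glycolysis genes (20 genes, 0.03) held no rise or fall, nor did 12 housekeeping genes (0.07), where Actb lay at 0.00. Of 24 cell cycle genes 19 lay below 0 (46.6% of all genes did). Their median was -0.17 in tags, -0.11 in tags per kb and -0.03 in MACS fold enrichment. The lowest value in tags was -0.50 at E2f8, a repressor of the E2F family, whose fold enrichment lay above 0 (0.31). Of 75 genes of cytosolic ribosomal proteins 69 lay above 0 (53.4% of all genes did), with a median of 0.20, the highest at Rpl36 (0.59). No gene of these lists passed 2-fold in tags.

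**Figure D3:**
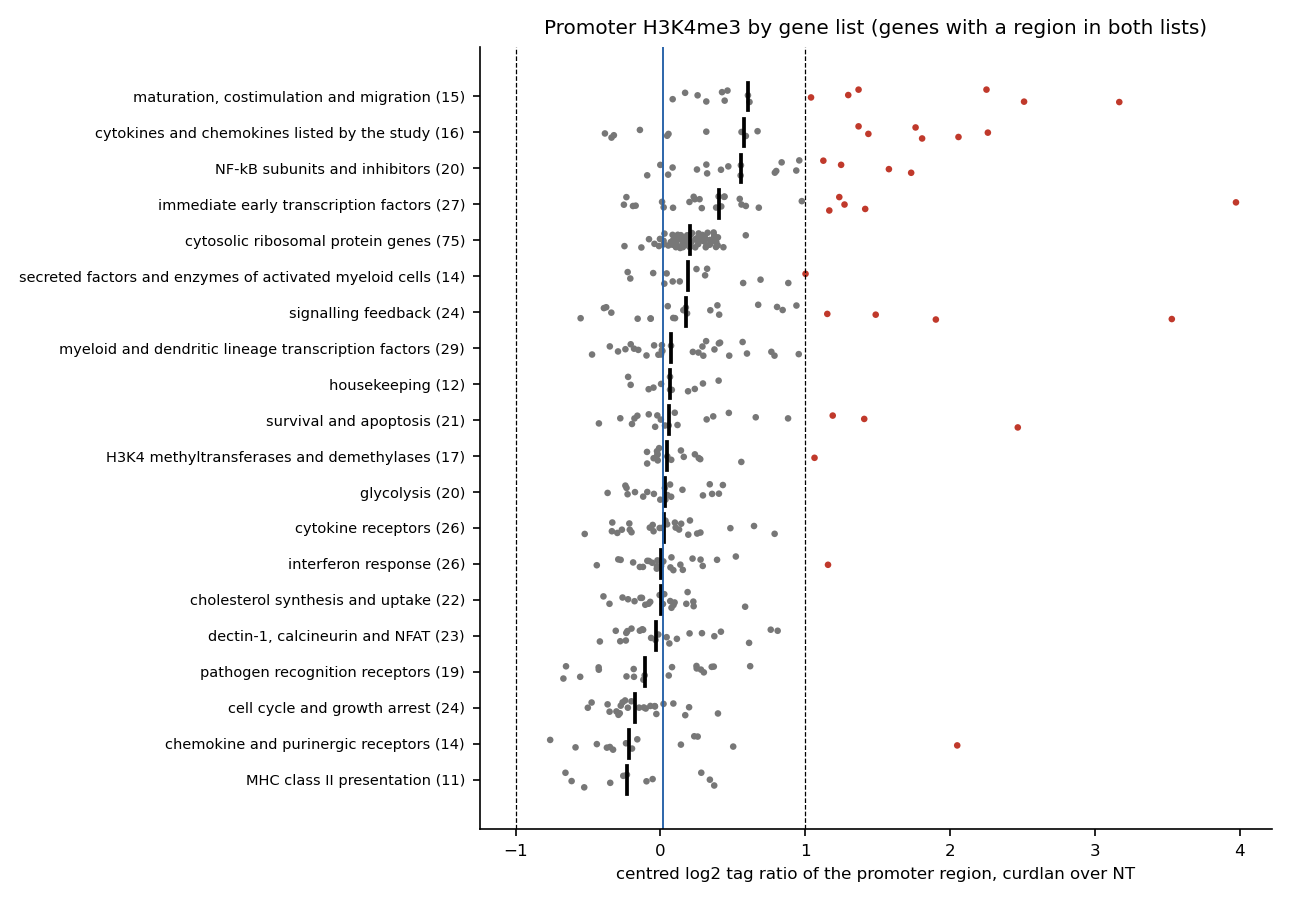
Centred log2 tag ratio (curdlan over NT) of the promoter region of each gene, by gene list; the number of genes with a region in both peak lists is in parentheses, black bars are list medians, red points rose 2-fold or more, and the blue line is the median of all protein-coding genes. Maturation genes have the highest median (0.60) and MHC class II presentation the lowest (-0.23).

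Risen promoters of other kinds, outside the naming rule and picked after their values were seen, included Stat5a, the transducer of GM-CSF signals, with 36.8 RPM in NT and 118 in curdlan (3.55-fold, interval 3.25 to 3.88). Csrnp1, a nuclear protein of early responses, rose from 62.5 to 173 (3.06-fold, 2.86 to 3.28), and Dot1l, the methyltransferase of H3K79, from 23.9 to 68.4 (3.17-fold, 2.83 to 3.55). Sqstm1, the autophagy receptor p62, rose from 48.4 to 103 (2.35-fold, 2.16 to 2.55), and the anaphylatoxin receptor gene C5ar1 from 49.1 to 99.2 (2.24-fold, 2.06 to 2.43). They are single examples of genes other than cytokines and give no share of rises for any class of genes.

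Risen regions also lay near each other: 23 of the 190 (12.1%) had another risen region within 100 kb, beside 554 of the 13911 that did not rise (3.98%). Such neighbours were Ccl22 and Ccl17, Ccl3 and Ccl4, Stat5a and Stat5b, and Grasp with both risen regions of Nr4a1. Where regions belong to the same gene, as at Cd9 and Phldb1, they are not separate genes.

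Widening ran mostly into the gene body. Among risen promoters of 1 peak in each list and of starts on 1 strand (n = 122), the median gain was 1126 bp at the end on the gene body side and 196 bp at the upstream end, and the gene body end gained more in 108 (88.5%). Among widened promoters (n = 212) the medians were 1522 and 251 bp, and 143 gained over 1 kb into the gene body against 25 upstream. The 8578 promoters with no change gained 47 and 18 bp, and in 55.8% of them the gene body end gained more. Narrowed promoters (n = 42) lost more at the gene body end as well, with medians of -502.5 and -231 bp.

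**Figure D4:**
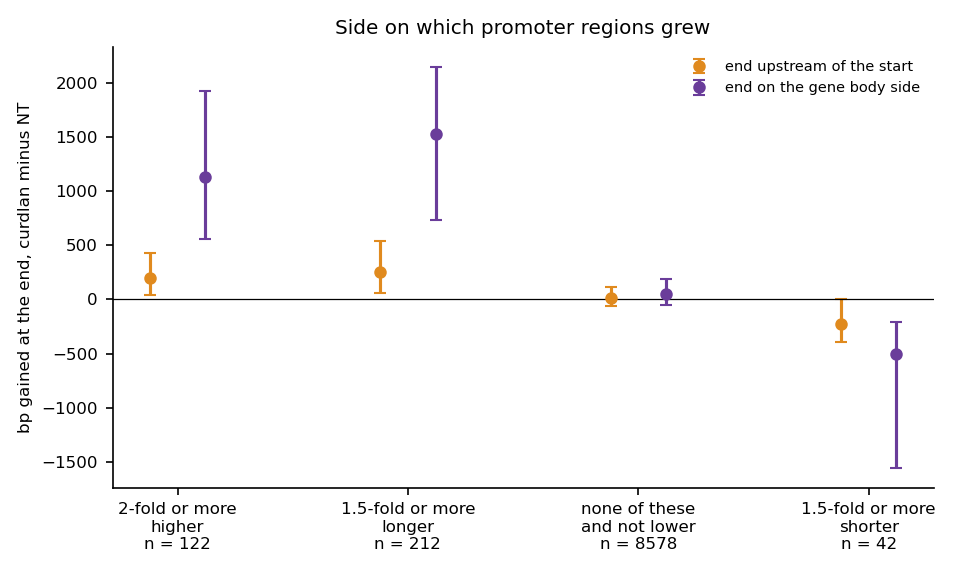
Base pairs gained in curdlan over NT (y axis) at the upstream end (orange) and the gene body end (purple) of promoter regions that rose (n = 122), widened (n = 212), did neither and did not fall or narrow (n = 8578) or narrowed (n = 42); points are medians and bars run between the quartiles over regions, not replicates. The gain on the gene body side has a median of 1522 bp in widened regions.

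By ratio of lengths the largest gains at promoters were at Ifitm2, Nr4a1, Denr, Adm and Cxcl2. The Nr4a1 region grew from 1804 to 7255 bp, of which 4739 bp were on the gene body side. Denr, which encodes a factor for translation reinitiation, grew from 3158 to 11573 bp and rose in tags (1096 and 3648), but its tags per kb went the other way (centred log2 ratio -0.29), as did its MACS fold enrichment (-0.41). Cxcl2 grew from 2044 to 6327 bp and Ifitm2 from 899 to 3972 bp. Tags per kb were higher at Nr4a1 (2.02) and Cxcl2 (0.48) and lower at Denr.

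Some promoters widened with a small change in tags. Ddx24, an RNA helicase gene, grew from 2044 to 5799 bp with 590 and 1044 tags (centred log2 ratio 0.62), and its tags per kb (-0.84) and MACS fold enrichment (-0.34) lay below 0. The other promoters among the 10 largest gains in length, besides Plcb2, were Adm (adrenomedullin, 1425 to 4585 bp, extended upstream), Nfkbiz (the NF-kB cofactor IκBζ, 1293 to 3797 bp), BC006779 (1927 to 5476 bp) and the adhesion gene Sdk1 (951 to 2633 bp). The Nfkbiz region meant here was a weak one of 62 and 192 tags at its most upstream start, while the strongest Nfkbiz region had a log2 ratio of 0.47. Of the 190 risen regions 178 also had higher centred tags per kb and 144 a higher centred MACS fold enrichment.

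Falls at promoters were few and smaller than the rises, and none reached 4-fold anywhere, but these counts depended on the scale: without centring 94 of the 14101 regions fell, and by MACS fold enrichment 616 fell and 585 rose. The 6 promoters past 2-fold were A630055G03Rik (591 tags in NT and 291 in curdlan, 0.43 times the NT level after centring), Klk1b11 (339 and 171 tags), Ptpn6 (381 and 197), Susd3 (197 and 107), Acot6 (170 and 96) and Bank1 (465 and 266). Ptpn6 encodes SHP-1, a phosphatase that restrains receptor signalling in myeloid cells. Its region, which also holds the start of Grcc10, shortened from 4870 to 1909 bp, so that tags per kb were higher (0.24). The change was -3060 bp at the end upstream of the Ptpn6 start and 99 bp at its gene body end. Bank1 is a scaffold protein known from B cells. Klk1b11 belongs to a family of near-identical kallikrein genes, so reads may be split between copies.

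Below the limit, the next 14 ratios ran from -0.99 to -0.86 on the log2 scale, or from -1.13 at Fyn to -1.01 at Gpr34, all past 2-fold, without centring. March1, a ubiquitin ligase that removes MHC class II and CD86 from the surface, had 169 RPM in NT and 78.2 in curdlan at an internal start (interval 0.48 to 0.54 times the NT level). Fyn, a SRC family kinase, had 54.7 and 24.9 RPM (0.45 to 0.56) at an internal start, and the inflammasome sensor gene Nlrp1b 31.6 and 14.8 (0.45 to 0.60). Gpr34, a receptor for lysophosphatidylserine, had 95.8 and 47.6 (0.51 to 0.60). In NT, March1 and Gpr34 had 2815 and 1596 tags, Fyn 912 and Nlrp1b 526, where the median paired region had 530. The remaining ones were Fam125b, BC055004, Wiz, Trim44, Abcg3, Gbp4, Rasgrf2, Hist1h2bm, Plxna1 and Gbp8, of which Abcg3, Gbp4 and Gbp8 lie close together on chromosome 5 and Gbp4, Gbp8 and Hist1h2bm have similar copies that can share reads. By MACS fold enrichment BC055004 (0.25) and Abcg3 (0.09) lay above 0.

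By ratio of lengths narrowing was largest at Ptpn6, Taf4a, A630055G03Rik and Gna15. Taf4a, a subunit of TFIID, shortened at an internal start from 1851 to 875 bp with 170 and 184 tags. Gna15, a G protein of haematopoietic cells, shortened from 8998 to 4462 bp with 1998 and 1364 tags (centred log2 -0.76), mostly on the gene body side, and its tags per kb went the other way (0.31). The splicing factor gene Prpf18, the nuclear envelope gene Sun2, the transaldolase gene Taldo1, Zfp808, the phosphodiesterase gene Pde7a and the semaphorin gene Sema4b completed the 10 promoters, with centred log2 length ratios from -0.84 to -0.73.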

How the data were processed

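H3K4me3 ChIP-seq and input libraries of D1 cells, 1 of each for NT and curdlan, were used; 4 of 8 samples entered the comparison, and the lists for NFATc2 and for curdlan with FK506 were read for summits and side-by-side values. Bowtie was the aligner and mm9 the genome of the authors, who then ran MACS (1.4.2 per the file headers, where the methods name another version) separately on each library with its own input, at a p-value limit of 1e-05. For each peak the deposited lists give the count of tags, not normalized, a score of −10 log10 p, the fold enrichment, which is the ratio of tags to the local background from input, and the FDR in percent. No peak was pooled by the authors. Tags were summed over the peaks of a region. The genome was NCBIM37, the assembly called mm9, with Gencode vM1 genes (22380 protein-coding). A region was at a promoter within 1 kb of a start, and its gene was the one whose start was nearest to the summit of the curdlan peak with most tags. The work used matplotlib 3.10.9, scipy 1.17.1, pandas 2.3.3 and numpy 2.4.6 under Python 3.11.15, and pairing, centring and intervals were tested on simulated data.

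Members, gene lists and the rule for named genes were chosen with earlier results of these data known. The rule took, among promoter regions with 200 or more tags in both lists together, the 20 highest and 20 lowest tag ratios, the 10 highest and 10 lowest length ratios, up to 6 genes with the largest change in each of 19 lists, and Actb. Genes of the lists with smaller changes that are named beside them (Cd80, Cd86, Rel, Nfkb2, Rela, Fos, Jun, Myc, Dusp6, Socs1, Clec7a and Nfatc2) were added for their known roles after their values were seen. Ribosomal protein genes were a further list, taken by symbol. Of 502 listed genes 500 were found in the annotation. A listed gene took its promoter region with most tags. Alternatives were other fold limits, centring, scaling, pairing, peak filters and assignment of starts, tags per kb and MACS fold enrichment.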

Additional observations from a re-analysis of the deposited data

How the results depend on the processing

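No paired analysis was possible because each condition had 1 library, and for the same reason no replicate could be left out. Beside 190 risen, 39 fallen, 326 widened and 99 narrowed regions, limits of 1.5-fold in tags and 2-fold in length gave 614 risen, 385 fallen, 73 widened and 17 narrowed, and 3-fold in tags gave 49 risen and 3 fallen. Without centring 94 fell, and with peaks at a p of 1e-10 or less 24 fell. Tags per kb gave 47 risen and 7 fallen, and the MACS fold enrichment gave 585 and 616. The median of that enrichment was 0.72 higher in curdlan on the log2 scale before centring, and the input depths differed too. The remaining alternatives for scaling, pairing, FDR, grouped centring, low counts and the assignment of starts to regions left every count within 1.5 times. Not every named region passed the peak filters: of 54, an FDR of 5% or less kept 50 and a p of 1e-10 or less kept 45. Ifitm2, Plcb2 and 1190002H23Rik were among those that the FDR limit removed. Over the 54 named regions, 505 of 527 values kept the sign. Among those of the 54 past 2-fold, reversed were Ptpn6 (0.24), Denr (-0.29), Nfkbiz (-0.0791) and BC006779 (-0.0942) for tags per kb, and Denr (-0.41), Adm (-0.61), Nfkbiz (-0.77) and Sdk1 (-0.21) for the fold enrichment. Signs also changed at those short of 2-fold: at Sun2 without centring, at Ddx24, Taf4a, Gna15, Prpf18, Taldo1, Zfp808, Pde7a and Sema4b for tags per kb, and at BC055004, Abcg3, Ddx24, Taf4a and Gna15 for the fold enrichment. Outside the 54, risen genes of the lists also lay below 0 in fold enrichment: Cd40 (-0.48), Traf1 (-0.41), Ccr7 (-0.29), Kdm6b (-0.22) and Nr4a3 (-0.17). Of all 190 risen regions 144 lay above 0 in it. The causes were not tested. The standard deviation of the log2 ratio was 0.45 over regions with 233 or fewer NT tags and 0.27 over those with 915 or more.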

Other observations

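Outside protein-coding starts, the largest rises lay near Nr4a1, near Mir155 and at a place far from annotated starts. A region 12214 bp upstream of the Nr4a1 start rose from 64 to 786 tags (10.6-fold, interval 8.23 to 13.9). A region whose summit lay 9232 bp from the annotated start of Mir155, the gene of a microRNA of activated immune cells, rose from 246 to 2588 tags (9.11-fold, 7.99 to 10.4) and grew from 2349 to 7616 bp. The mature miR-155-5p in RefSeq (GRCm38.p6) is shown because it is the product of the gene nearest to this region, with the seed, bases 2 to 8, in capitals.
mmu-miR-155-5p: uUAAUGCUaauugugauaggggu
A region on chromosome 10, 102743 bp from any annotated start and 293361 bp from that of Eea1, the nearest protein-coding gene, rose from 117 to 1068 tags (7.90-fold, 6.52 to 9.65). Regions inside genes rose at Iqgap1 (91 and 448 tags, 4.26-fold), Dnmt3a (169 and 719 tags, 3.68-fold), Cd9 (125 and 470 tags, 3.26-fold), Hivep3 (760 and 2791 tags, 3.18-fold) and Mid1 (481 and 1704 tags, 3.07-fold). A region at -16585 bp from the start of Irf8, a lineage factor of DCs, and near an annotated 7SK RNA rose from 177 to 607 tags (2.97-fold), while the Irf8 promoter had a log2 ratio of 0.79. The deepest falls lay away from starts too, with 529 and 166 tags at a region at -28018 bp from the start of Prex1 (0.27 times the NT level after centring), 310 and 100 tags inside Lekr1 (0.28 times) and 873 and 350 tags inside Vrk1 (0.35 times).

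Regions in 1 list only were weak as a rule, with a median of 72 tags over the 1261 in NT and 85.5 over the 592 in curdlan, and the lists hold no values for regions below the calling limit. Of those at protein-coding starts, 16 in curdlan and 5 in NT had over 200 tags. Curdlan-only regions at such starts, beyond the cytokines, included those at Siglec5, an inhibitory lectin (834 tags), and Wsb2 (492 tags). Others lay at Ehd1, a protein of endosomal recycling (349 tags), and Acod1, which makes itaconate (202 tags). The regions at Wsb2 and Ehd1 had no peak in the list for curdlan with FK506, and that at Siglec5 had 226 tags there. In NT only, a region at a start of Pik3cg, a lipid kinase of leukocytes, had 421 tags and one at Cd5 had 226. For regions in 1 list, whether the start was the most upstream one of the gene was not tested. There were 132 curdlan-only regions at protein-coding starts, beside 94 protein-coding genes with a peak in curdlan only. The regions named here are therefore not given as genes without the mark in the other list.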
